A study of Oryza sativa and Arabidopsis thaliana with 24 samples.

Results

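Rice (Oryza sativa) carries nuclear tRNA genes whose sequences closely resemble tRNAs of its plastid or mitochondrion, and the levels of these copies and of the fragments assigned to them were followed here. The deposited catalogue lists 299 rice tRNAs, each a distinct sequence with its loci. Of these, 40 have a locus in an organelle genome, 25 of them in the plastid and 15 in the mitochondrion alone. A nuclear tRNA was taken as a copy when it has no organelle locus and its sequence lies within 15 edits (substitutions, insertions and deletions over the whole length) of an organelle tRNA, and 61 of the 299 met this. For each copy the nearest organelle sequence is called its closest organelle tRNA. A copy is called plastid-like when that tRNA has a plastid locus, and mitochondrion-like otherwise. By this rule 56 copies are plastid-like and 5 are mitochondrion-like. Of the 25 tRNAs with a plastid locus, 6 also have a mitochondrial locus (os_tR32, os_tR37, os_tR63, os_tR137, os_tR180 and os_tR197). Their copies, called plastid-like here, resemble a mitochondrial tRNA just as closely. The remaining 198 are other nuclear tRNAs. No measured level entered this choice.

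The libraries came from rice panicle, root and shoot, with n = 2 libraries in each of 7 groups and 14 in all. Seedlings grew in Yoshida's nutrient solution at 28 °C under long days. Roots and shoots were taken after 8 h at 4 °C under continuous light (cold), after 8 h in 300 mM NaCl (salt), or without stress (control). Panicles were untreated. Neither age nor variety is given in the sources used here, and no group carries a transgene or mutation in its label. Total RNA was extracted with TRIzol, pretreated with a kit that removes tRNA modifications and end groups that block library construction, and made into small RNA libraries. Values are RPM, reads scaled to library size. The tRNA signal is the RPM assigned to a tRNA itself, and the tRF total is the RPM of all tRNA-derived fragments (tRFs) assigned to a tRNA. A separate table lists single fragment sequences.

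A tRNA carries one amino acid to the ribosome and reads codons through its anticodon. Plastids and mitochondria of plants keep small genomes with tRNA genes of their own, and plant mitochondria also hold plastid-derived tRNA genes. Organelle DNA enters the nuclear genome again and again in plant evolution, and rice chromosome 10 is well known for a large insertion of plastid DNA. A tRNA gene inside such an insertion keeps the organelle sequence at first and then drifts by mutation. Fragments of tRNAs are named by the end they come from. A tRF-5 and a 5'-half start at the 5' end, and a tRF-3 and a 3'-half end at the 3' end, and a 5'-half or 3'-half is cut in or near the anticodon loop. A short fragment of a copy and of its organelle tRNA can be the same sequence, so reads of the pair can be told apart only where they cover a difference.

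The copies of plastid Asp-GTC os_tR55 are shown first because they lead both tables. Sequences are those of the deposited catalogue, 5' to 3' with the added 3' CCA, and capitals in a copy mark bases that differ from the organelle tRNA.
os_tR55: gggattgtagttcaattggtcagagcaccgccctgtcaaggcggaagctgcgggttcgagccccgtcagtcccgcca
os_tR54: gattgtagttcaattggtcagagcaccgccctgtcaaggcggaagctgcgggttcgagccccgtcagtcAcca
os_tR59: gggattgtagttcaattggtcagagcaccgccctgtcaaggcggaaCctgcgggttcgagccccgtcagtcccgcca
os_tR52: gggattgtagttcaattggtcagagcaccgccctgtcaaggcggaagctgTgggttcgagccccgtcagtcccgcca
os_tR50: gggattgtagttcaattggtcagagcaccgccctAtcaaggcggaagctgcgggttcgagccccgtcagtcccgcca
Substitutions are written as the organelle base, its position from the 5' end of the organelle tRNA, and the base of the copy. os_tR59 carries G47C, os_tR52 carries C51T, and os_tR50 carries G35A, which turns its anticodon to ATC. os_tR54 carries C72A and 4 deletions at the ends, and shares a run of 69 bases with os_tR55, so its differences all lie in the ends of the molecule. Positions are given 1-based in the authors' coordinates, of a rice genome build that the sources used here do not give. os_tR54 lies at chr1:33505299-33505368 on the minus strand, os_tR59 at chr7:15562474-15562547 on the plus strand, os_tR52 at chr11:14548859-14548932 on the minus strand and os_tR50 at chr10:10823353-10823426 on the plus strand.

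Plastid His-GTG os_tR137 has 6 copies, more than any other organelle tRNA, and their differences lie at opposite ends of the molecule.
os_tR137: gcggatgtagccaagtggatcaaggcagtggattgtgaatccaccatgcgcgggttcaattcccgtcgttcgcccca
os_tR128: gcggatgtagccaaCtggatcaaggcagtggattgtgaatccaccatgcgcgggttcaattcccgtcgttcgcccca
os_tR131: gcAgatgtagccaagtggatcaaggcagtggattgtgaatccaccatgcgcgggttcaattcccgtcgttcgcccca
os_tR132: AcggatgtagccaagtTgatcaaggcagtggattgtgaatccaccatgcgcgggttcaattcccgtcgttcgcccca
os_tR133: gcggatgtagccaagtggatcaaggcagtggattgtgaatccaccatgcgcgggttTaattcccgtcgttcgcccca
os_tR129: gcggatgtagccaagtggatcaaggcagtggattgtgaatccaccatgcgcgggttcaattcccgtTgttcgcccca
os_tR135: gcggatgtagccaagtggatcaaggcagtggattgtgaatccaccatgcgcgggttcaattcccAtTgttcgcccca
os_tR128 (G15C, chr10:10806664-10806737, minus strand), os_tR131 (G3A, chr10:21336225-21336298, plus strand) and os_tR132 (G1A and G17T, chr11:3500291-3500364, plus strand) differ in the 5' part. os_tR133 (C57T, chr12:11413549-11413622, plus strand), os_tR129 (C67T, chr10:10888146-10888219, plus strand) and os_tR135 (G65A and C67T, chr4:23654558-23654631, plus strand) differ in the 3' part. os_tR129 and os_tR135 share C67T.

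Further copies with high levels belong to plastid Pro-TGG os_tR214, Gly-GCC os_tR114, Asn-GTT os_tR37 and Phe-GAA os_tR197, and to mitochondrial Ser-GCT os_tR242.
os_tR214: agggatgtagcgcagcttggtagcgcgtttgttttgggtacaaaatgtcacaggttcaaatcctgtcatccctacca
os_tR217: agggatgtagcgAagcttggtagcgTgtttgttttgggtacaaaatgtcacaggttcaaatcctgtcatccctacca
os_tR220: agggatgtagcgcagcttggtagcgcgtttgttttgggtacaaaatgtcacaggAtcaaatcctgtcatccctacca
os_tR114: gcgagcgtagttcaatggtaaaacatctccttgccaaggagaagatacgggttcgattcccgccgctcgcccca
os_tR116: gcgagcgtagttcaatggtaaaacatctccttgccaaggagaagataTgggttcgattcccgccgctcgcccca
os_tR119: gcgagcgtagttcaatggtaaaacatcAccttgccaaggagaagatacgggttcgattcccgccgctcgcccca
os_tR37: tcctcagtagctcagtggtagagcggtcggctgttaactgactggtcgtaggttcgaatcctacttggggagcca
os_tR41: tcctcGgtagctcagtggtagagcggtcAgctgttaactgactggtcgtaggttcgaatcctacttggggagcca
os_tR45: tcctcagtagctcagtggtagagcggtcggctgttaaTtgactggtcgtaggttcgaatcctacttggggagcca
os_tR197: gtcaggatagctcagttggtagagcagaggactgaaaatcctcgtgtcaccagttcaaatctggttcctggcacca
os_tR199: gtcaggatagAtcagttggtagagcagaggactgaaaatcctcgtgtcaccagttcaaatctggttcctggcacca
os_tR242: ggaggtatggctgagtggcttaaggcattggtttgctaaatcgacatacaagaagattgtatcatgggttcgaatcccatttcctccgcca
os_tR239: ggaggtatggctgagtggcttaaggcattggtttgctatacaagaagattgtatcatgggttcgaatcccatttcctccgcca
os_tR217 carries C13A and C26T (chr1:18997670-18997743, minus strand) and os_tR220 carries T55A (chr6:23578457-23578530, plus strand). Among the Gly copies, os_tR116 carries C48T (chr12:19292419-19292489, minus strand) and os_tR119 carries T28A (chr2:14284134-14284204, minus strand). Of the Asn copies, os_tR41 carries A6G and G29A (chr12:5616180-5616251, minus strand) and os_tR45 carries C38T (chr4:23640193-23640264, plus strand). os_tR199 carries C11A (chr12:13350385-13350457, minus strand). The listed sequence of os_tR239 lacks 8 bases of os_tR242. Its locus (chr12:20460082-20460169, plus strand) spans 88 bases, 8 more than that sequence without CCA. The loci of os_tR241 (by 8 bases), os_tR250 (by 12) and os_tR276 also span more bases than listed. Edits were counted on listed sequences and may overstate how far these 4 loci differ from the organelle tRNA. Outside these families, os_tR31 differs from plastid Arg-TCT os_tR32 by C2T (chr10:10843015-10843086, minus strand) and os_tR263 from plastid Thr-TGT os_tR260 by G29A (chr12:22494269-22494341, minus strand).

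Most copies are nearly identical to an organelle tRNA. Of the 61, 34 differ by 1 edit (33 of them a substitution), 12 by 2, 9 by 3 to 6 and 6 by 8 to 15. Just inside the limit stood os_tR250 and os_tR276 at 15 edits, both with a listed sequence shorter than the locus. The first nuclear tRNA outside stood at 18, with 19 nuclear tRNAs at 16 to 20 edits. The median of the other nuclear tRNAs was 26. Only substitutions separate 47 copies from their organelle tRNA, and 14 have an insertion or deletion in the listed sequence. These 14 include the 4 copies whose locus is longer than the listed sequence. Of 104 substitutions, 57 were C to T or G to A in the direction from organelle tRNA to copy, 13 were T to C or A to G, and 34 were other changes. Single edits were spread along the molecule, with 11 in bases 1 to 25, 10 in bases 26 to 50 and 13 after base 50. In 6 copies the anticodon differs from that of the closest organelle tRNA, among them os_tR62 (Cys-ACA beside plastid Arg-ACG os_tR12) and os_tR202 (Phe-GAA beside plastid Leu-CAA os_tR149).

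The copies often lie among other organelle-like tRNA loci. The 61 copies have 63 loci, and 37 of these lie within 50000 bases of another copy or of a nuclear locus identical to an organelle tRNA. Chromosome 12 holds the first locus of 16 copies, chromosome 10 of 9 and chromosome 4 of 7. A stretch of chromosome 10 (chr10:10796728-10917141) holds 29 such loci, 4 of them copies, which include os_tR128, os_tR50, os_tR31 and os_tR129. A stretch of chromosome 4 (chr4:9093878-9210125) likewise holds 29 loci with 4 of copies. os_tR54 lies in a stretch of 14 loci on chromosome 1 (chr1:33505299-33589483). In addition, 34 of the 40 organelle tRNAs have nuclear loci of identical sequence, 137 in all. Reads of those loci cannot be told from reads of the organelle, and they are counted under the organelle tRNA.

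Reads of tRNA signal numbered 20674 to 150441 per library, and tRF totals rested on 130822 to 880814 reads, both recovered from the values as whole reads. In tRNA signal 1 read was worth 0.860 to 5.23 RPM, so copies at a few RPM rest on few reads. The summed tRNA signal ran from 43640.2 to 186483 RPM per library, and rescaled values are given where they change a result. Between the libraries of a group the counts differed by more than counting noise (chi-square per degree of freedom 1.78 to 3.70). The submitters describe the pairs as biological replicates, but nothing ties them to separate plants, and p-values measure only the spread between these libraries, which may be technical. Of the 61 copies, 43 are listed with tRNA signal and 59 with tRF totals, 42 with both; os_tR216 has neither. A mean of at least 1 RPM was reached by 38 copies in tRNA signal and 49 in tRF totals, and tests cover these.

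Copies held their largest share of the tRNA signal in shoot. Plastid-like copies made up 3.73 ± 0.0525% of the tRNA signal in panicle, 1.44 ± 0.069% in cold root, 0.779 ± 0.0688% in salt root, 0.685 ± 0.0197% in control root, 5.98 ± 0.0728% in cold shoot, 4.67 ± 0.497% in salt shoot and 6.91 ± 0.0964% in control shoot (mean ± SD, n = 2 each). In tRF totals their share was 6.88 ± 0.0368% in panicle, 1.75 ± 0.00257% in cold root, 0.689 ± 0.0226% in salt root, 0.713 ± 0.0224% in control root, 9.88 ± 0.116% in cold shoot, 9.48 ± 0.0672% in salt shoot and 12.9 ± 0.122% in control shoot. The 6 root libraries were below the 8 other libraries in both measures. In bulk tissue, fewer cells of a type and less RNA per cell cannot be told apart. The share of the plastid tRNAs themselves was 3.43 ± 0.102% in control root, against 49.8 ± 0.04498% in control shoot (tRNA signal), and their part in the values of the copies was not tested. Mitochondrion-like copies held 0.174 to 0.386% of the tRNA signal and 0.0297 to 0.108% of the tRF totals in the group means, with 0.174 ± 0.0323% in the tRNA signal of control root, against 0.386 ± 0.0549% in control shoot.

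The tRNA signal of the copies was concentrated in a few members. The 5 highest held 70.5% of the copies' summed mean RPM and os_tR54 alone held 36.7%. os_tR54 had 3459.8 and 3611 RPM in panicle, 603 and 748 in cold root, 403 and 431 in salt root, 223 and 241 in control root, 1513 and 1594 in cold shoot, 975 and 1064 in salt shoot, and 939 and 977 in control shoot. Its closest organelle tRNA was higher in all 14 libraries: os_tR55 had 12239 and 12299 RPM in panicle, 2449.5 and 2431 in cold root, 1743 and 2029.7 in salt root, 922 and 1073 in control root, 7065 and 7025 in cold shoot, 5099.9 and 5186 in salt shoot, and 3877 and 3918 in control shoot. Both were highest in panicle and lowest in control root, and the libraries of both groups stood apart from all others.

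The Pro copy os_tR217 was second. os_tR217 had 1268 and 1205 RPM in panicle, 259 and 252 in cold root, 105 and 198 in salt root, 147 and 134 in control root, 822 and 834 in cold shoot, 194 and 174 in salt shoot, and 308 and 270 in control shoot. Plastid Pro-TGG os_tR214 had 2021 and 2073 RPM in panicle, 448 and 554 in cold root, 199 and 477 in salt root, 208 and 292 in control root, 1487 and 1466 in cold shoot, 555 and 714 in salt shoot, and 1679 and 1791 in control shoot. Panicle was highest for the copy, followed by cold shoot, and its other groups ran from 105 to 308 RPM. The mitochondrion-like Ser copy os_tR239 followed, and its closest organelle tRNA os_tR242 has no tRNA signal value used here. os_tR239 had 453 and 563 RPM in panicle, 267 and 254 in cold root, 215 and 388 in salt root, 213 and 268 in control root, 199.7 and 142 in cold shoot, 99.2 and 76.5 in salt shoot, and 151 and 132 in control shoot. Panicle was highest, and the 6 root libraries were above the 6 shoot libraries on the deposited scale, an order that changes with the scaling, as given with the tests.

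The His copies os_tR129 and os_tR135, which share a substitution, had almost the same values. os_tR129 had 345 and 435 RPM in panicle, 89.7 and 91.6 in cold root, 52.3 and 98.8 in salt root, 25.3 and 20.6 in control root, 339 and 368 in cold shoot, 167 and 216 in salt shoot, and 316 and 404 in control shoot. os_tR135 had 394 and 399 RPM in panicle, 69.3 and 93.02 in cold root, 57.6 and 88.2 in salt root, 35.5 and 17.2 in control root, 316 and 326 in cold shoot, 152 and 228 in salt shoot, and 349 and 380.1 in control shoot. In both, all root libraries were below all shoot and panicle libraries. Their closest organelle tRNA os_tR137 has no tRNA signal value used here, so no ratio was formed.

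The Asn copy os_tR41 had another order of groups. os_tR41 had 315 and 368 RPM in panicle, 134 and 183 in cold root, 120.4 and 166 in salt root, 359.9 and 464 in control root, 126 and 115 in cold shoot, 10.6 and 22.5 in salt shoot, and 231 and 227 in control shoot. Plastid Asn-GTT os_tR37 had 749.9 and 702 RPM in panicle, 319.9 and 459 in cold root, 382 and 349 in salt root, 694 and 688 in control root, 324 and 289 in cold shoot, 94.99 and 116 in salt shoot, and 510.5 and 580.4 in control shoot. Control root and panicle were highest for the copy and overlapped, salt shoot was lowest, and the organelle tRNA was likewise lowest in salt shoot. The Gly copy os_tR116 had 52.1 and 78.1 RPM in panicle, 69.3 and 57.8 in cold root, 78.5 and 49.4 in salt root, 10.1 and 17.2 in control root, 209.6 and 235 in cold shoot, 50.7 and 119 in salt shoot, and 132 and 119.5 in control shoot. Plastid Gly-GCC os_tR114 had 478 and 663 RPM in panicle, 444 and 514 in cold root, 571 and 417 in salt root, 213 and 251 in control root, 1086 and 1224 in cold shoot, 688 and 681 in salt shoot, and 1055 and 1083 in control shoot. Cold shoot was highest and control root lowest for the copy. The Arg copy os_tR31 had 84.5 and 103 RPM in panicle, 79.5 and 66.2 in cold root, 68.04 and 17.6 in salt root, 50.7 and 65.3 in control root, 138 and 114 in cold shoot, 52.8 and 76.5 in salt shoot, and 65.2 and 55.9 in control shoot. Plastid Arg-TCT os_tR32 had 548 and 579 RPM in panicle, 104 and 124 in cold root, 105 and 49.4 in salt root, 152 and 107 in control root, 450.3 and 417 in cold shoot, 219.5 and 239 in salt shoot, and 305 and 334 in control shoot. Salt root replicate 2 was lowest for both, cold shoot was highest for the copy, followed by panicle, and its other groups ran from 17.6 to 79.5 RPM.

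**Figure D1:**
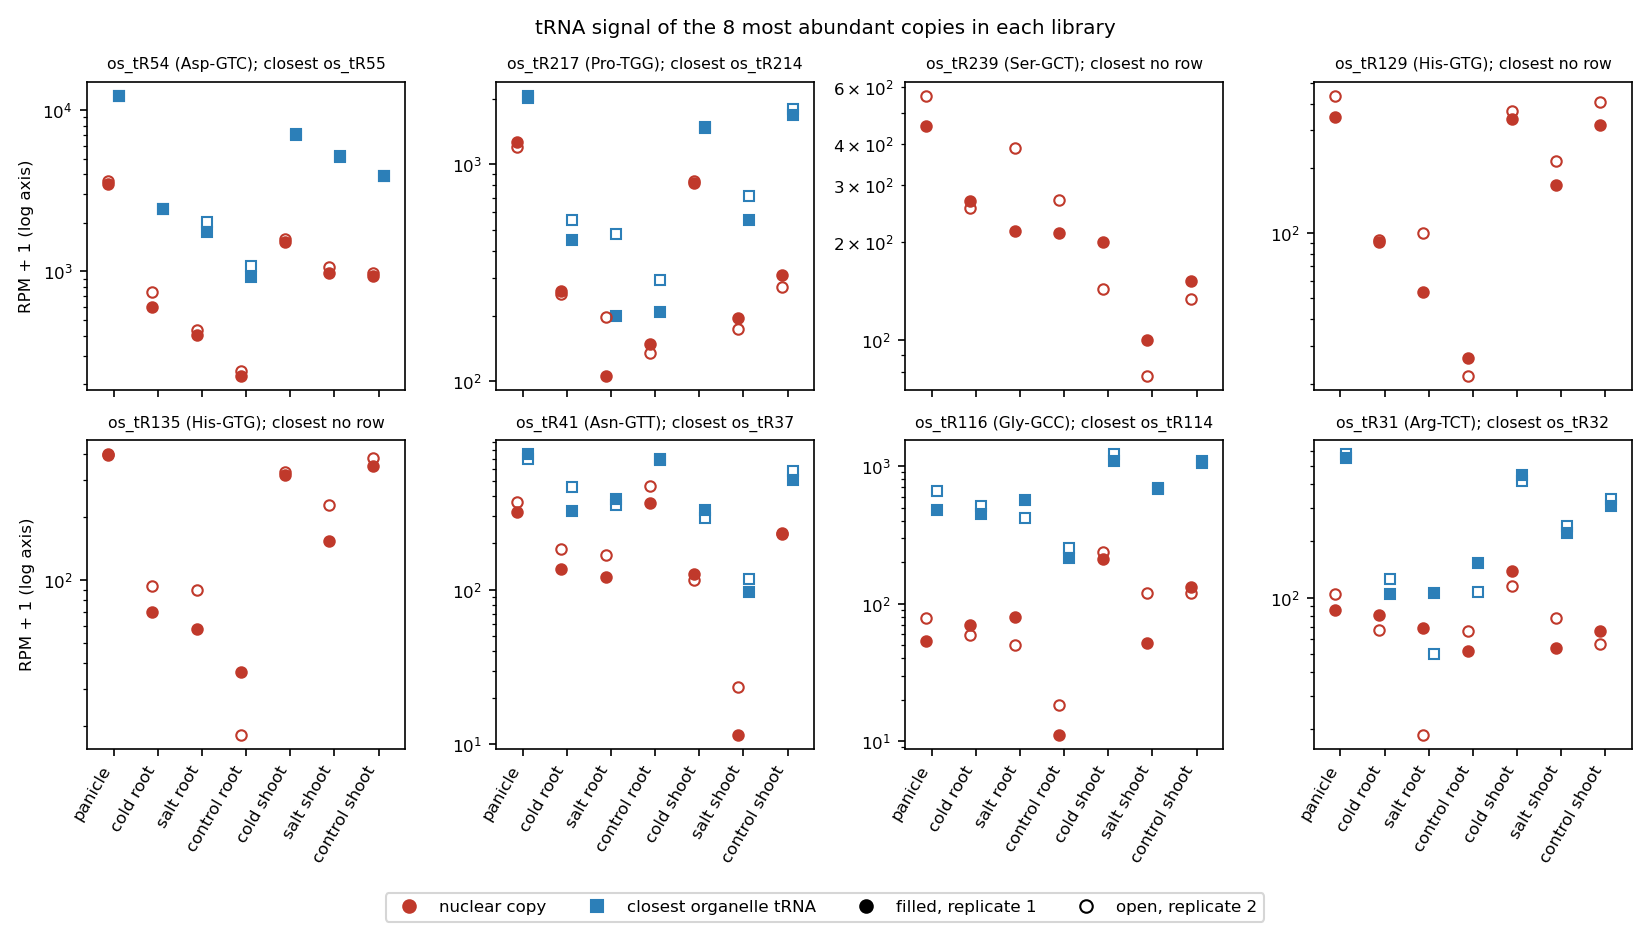
tRNA signal (RPM + 1, log axis) of the 8 copies with the highest mean, in red circles, and of the closest organelle tRNA, in blue squares, in each of the 14 libraries (filled, replicate 1; open, replicate 2; groups along the x axis). Where the organelle tRNA has values it lies above its copy in every group; os_tR54 and os_tR217 peak in panicle, and os_tR129 and os_tR135 are low in root.

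The tRF totals were led by other copies. The 5 highest held 72.3% of the copies' summed mean RPM. The Asp copies os_tR59 and os_tR52 came first with means of 2157 and 2153 RPM, beside 2188 RPM for os_tR55. os_tR59 had 3050.03 and 2970.3 RPM in panicle, 427 and 424 in cold root, 146 and 158 in salt root, 124 and 132 in control root, 3855 and 3768 in cold shoot, 4013 and 4164 in salt shoot, and 3533 and 3433 in control shoot. os_tR52 had 3050.03 and 3012 RPM in panicle, 438 and 425 in cold root, 148 and 151 in salt root, 109.8 and 128 in control root, 3889.6 and 3799 in cold shoot, 4082 and 3887 in salt shoot, and 3540.2 and 3485 in control shoot. The closest organelle tRNA os_tR55 had 3075 and 3011 RPM in panicle, 443 and 434 in cold root, 172 and 163 in salt root, 128 and 142 in control root, 3903 and 3842 in cold shoot, 4019 and 4074 in salt shoot, and 3659 and 3567 in control shoot. The copies lay close to os_tR55 in every library, with all root libraries below all panicle libraries and these below all shoot libraries. os_tR50, with the changed anticodon, had 312 and 319.7 RPM in panicle, 112 and 118 in cold root, 47.5 and 43.9 in salt root, 26.1 and 25.2 in control root, 738 and 759 in cold shoot, 933 and 1083 in salt shoot, and 728 and 714 in control shoot. It was lower than the other Asp copies in all 14 libraries and highest in salt shoot. os_tR54, the leading copy in tRNA signal, has no tRF total used here.

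The Phe copy os_tR199 came next in tRF totals. os_tR199 had 370.1 and 375 RPM in panicle, 136 and 136 in cold root, 125 and 129.6 in salt root, 113 and 119 in control root, 816 and 778 in cold shoot, 937 and 887 in salt shoot, and 2582 and 2635 in control shoot. Plastid Phe-GAA os_tR197 had 2347 and 2268 RPM in panicle, 900.3 and 945 in cold root, 693 and 675 in salt root, 738 and 775 in control root, 3812 and 3748 in cold shoot, 3872 and 3948 in salt shoot, and 6569.6 and 6749.7 in control shoot. Control shoot stood above all other groups in both. The Gly copy os_tR116 had 183 and 166 RPM in panicle, 42.2 and 34.5 in cold root, 14.02 and 9.39 in salt root, 7.204 and 6.195 in control root, 447 and 464 in cold shoot, 401 and 379.7 in salt shoot, and 491 and 446 in control shoot. Its family member os_tR119 had 238 and 239.6 RPM in panicle, 44.3 and 47.1 in cold root, 27.2 and 26.7 in salt root, 20.2 and 19.01 in control root, 229 and 233 in cold shoot, 411 and 518 in salt shoot, and 346 and 316 in control shoot. Plastid Gly-GCC os_tR114 had 503 and 461 RPM in panicle, 96.7 and 91.9 in cold root, 48.5 and 51.5 in salt root, 40.8 and 35.7 in control root, 1023 and 998 in cold shoot, 1048 and 965 in salt shoot, and 1103 and 1047 in control shoot. All 3 were lowest in root.

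The Pro copy os_tR220 had 263 and 290.4 RPM in panicle, 32.1 and 24.3 in cold root, 11.1 and 10.9 in salt root, 14.8 and 20.1 in control root, 371 and 354 in cold shoot, 304 and 332 in salt shoot, and 462 and 445 in control shoot. Plastid Pro-TGG os_tR214 had 647 and 645 RPM in panicle, 168 and 157 in cold root, 68.2 and 62.6 in salt root, 103 and 102 in control root, 1068 and 1025 in cold shoot, 973 and 937 in salt shoot, and 1216 and 1096 in control shoot. The copy was highest in control shoot and lowest in salt root. The Thr copy os_tR263 had 156 and 153 RPM in panicle, 63.5 and 66.96 in cold root, 17.8 and 26 in salt root, 26.1 and 21.4 in control root, 257 and 289 in cold shoot, 222 and 221 in salt shoot, and 365 and 365 in control shoot. Plastid Thr-TGT os_tR260 had 177 and 191 RPM in panicle, 71.2 and 69.95 in cold root, 22.7 and 29.2 in salt root, 28.5 and 24.99 in control root, 352 and 348 in cold shoot, 290.4 and 254 in salt shoot, and 471 and 463 in control shoot. Shoot groups were above panicle, and panicle above every root group, for both. The tRNA signal of os_tR220 differed from its tRF total: os_tR220 had 5.39 and 1.24 RPM in panicle, 2.04 and 0 in cold root, 5.23 and 10.6 in salt root, 5.07 and 0 in control root, 1.64 and 2.29 in cold shoot, 0 and 0 in salt shoot, and 87.3 and 76.5 in control shoot, so control shoot stood apart from all 12 other libraries.

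**Figure D2:**
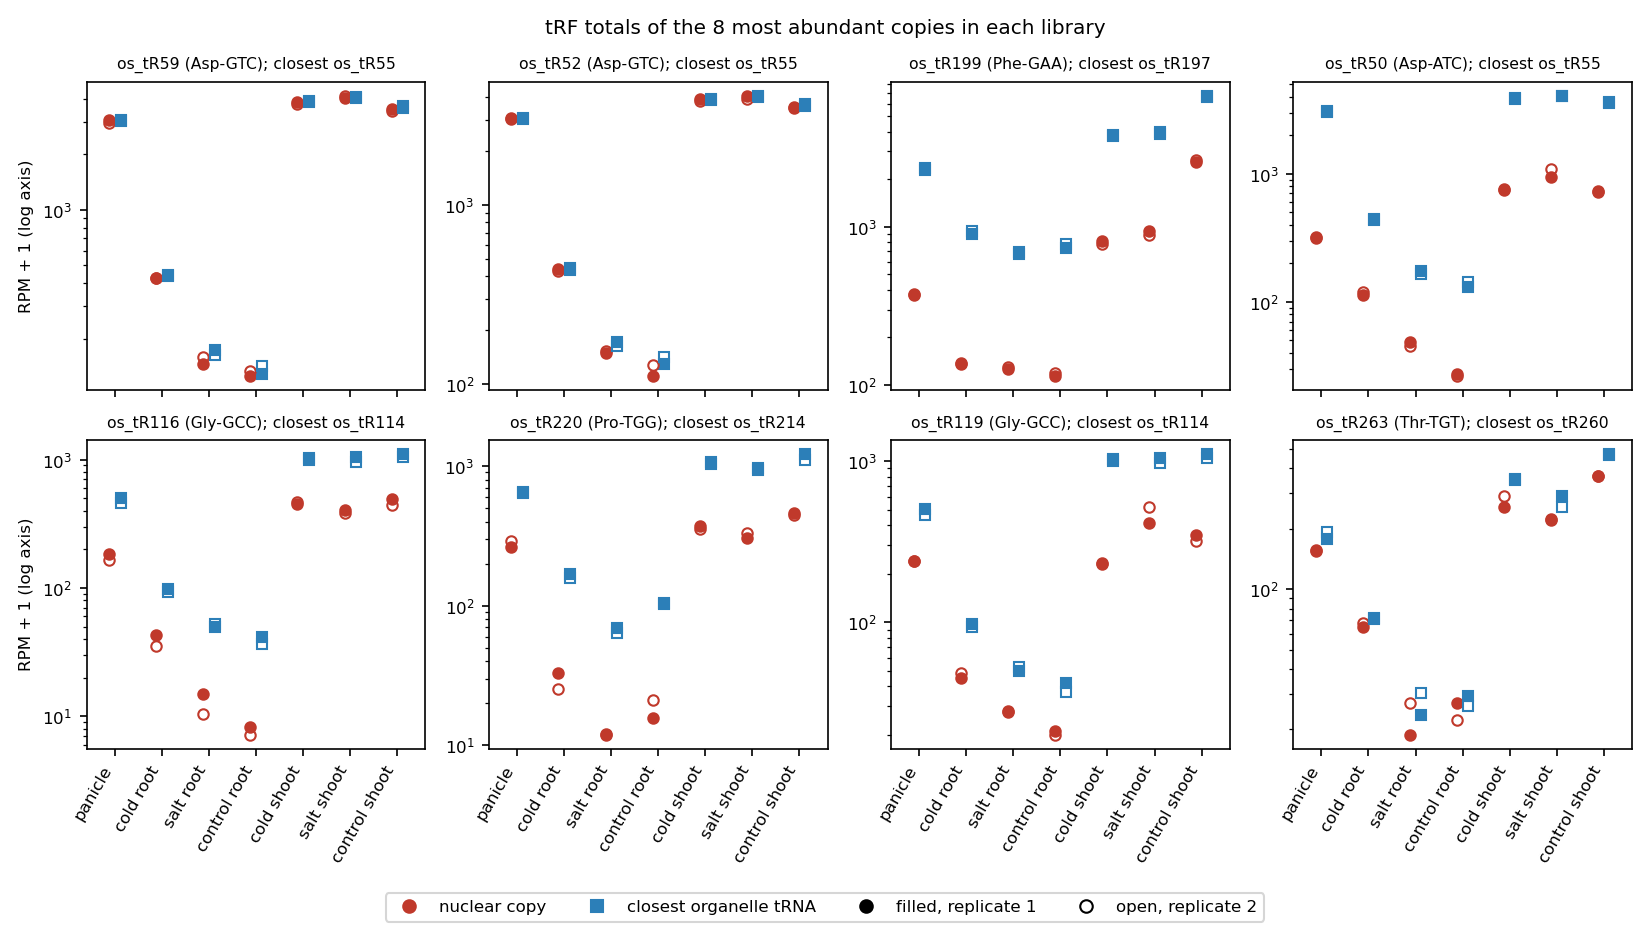
tRF totals (RPM + 1, log axis) of the 8 copies with the highest mean, in red circles, and of the closest organelle tRNA, in blue squares, in each of the 14 libraries (filled, replicate 1; open, replicate 2). os_tR59 and os_tR52 coincide with os_tR55, and each of the 8 copies is lowest in root.

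In all 35 pairs listed with tRNA signal and all 59 with tRF totals, the copy had a lower mean than its closest organelle tRNA. The 35 leave out the His copies and Ser os_tR239 and os_tR241, since os_tR137 and os_tR242 have no tRNA signal value used here. In tRF totals the order was close to fixed in advance. Of the 353 listed fragments that match a copy, 352 also match an organelle tRNA. Among the 30 pairs with both members at 1 RPM or more, the copy's mean tRNA signal was at a median of 8.80% of that of the organelle tRNA, and at most 80.7% (os_tR195). Among 49 such pairs the mean tRF total was at a median of 36.1%, and 17 pairs exceeded 50%. The highest were os_tR59 with 98.6%, os_tR52 with 98.4% and os_tR181 with 92.1%. In tRNA signal os_tR54 had 24.9% of os_tR55, os_tR217 44.2% of os_tR214, os_tR41 45.4% of os_tR37, os_tR116 13.6% of os_tR114 and os_tR31 27.8% of os_tR32. In tRF totals os_tR217 had 17.01%, os_tR41 9.18%, os_tR116 41.1% and os_tR31 28.7%. Over the 34 copies with a ratio in both measures, 25 stood at a higher percent in tRF totals, with medians of 2.25% in tRNA signal and 32.1% in tRF totals. The Asp copies os_tR59 and os_tR52 show the contrast, with 0.615% and 0.711% of os_tR55 in tRNA signal.

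**Figure D3:**
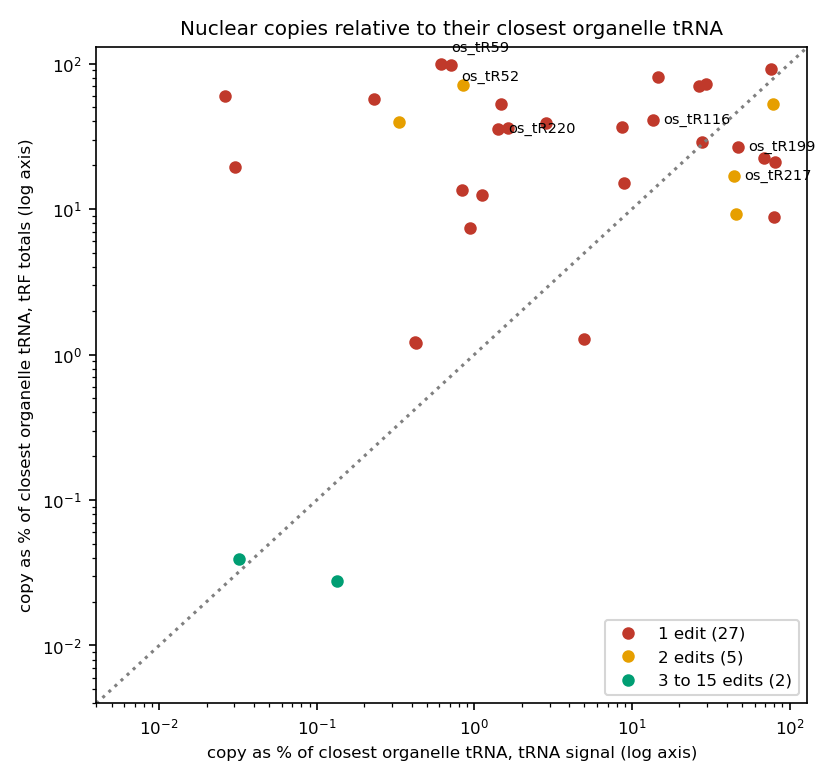
Mean RPM of each copy as a percent of its closest organelle tRNA in tRNA signal (x axis) and in tRF totals (y axis), both on log axes, for the 34 copies with both; colours give the number of edits and the dotted line marks equal percents. 25 of 34 lie above the line.

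The single fragments show how much sequence the pairs share. Of 2794 listed fragments, 353 match a copy exactly over their whole length, and 352 of these also match an organelle tRNA. A single fragment matches a copy alone, a 5'-half of 35 nt that matches os_tR50 and ends at its changed anticodon base, with a mean of 1.94 RPM. It differs from os_tR55 in that last base only, and its origin was not tested. No fragment that matches a copy also matches one of the 198 other nuclear tRNAs. A further 232 fragments match an organelle tRNA and no copy, among them any fragment of the 14 organelle tRNAs without a copy. Fragments shared by copy and organelle tRNA summed to a mean of 10546 RPM, and those of organelle tRNAs alone to 6729 RPM. Of the 61 copies, 49 have a listed fragment and 12 have none. Among the 1081 fragments with no exact match, 59 were nearer to copies or organelle tRNAs than to other nuclear tRNAs, and 0 of these were nearer to a copy than to an organelle tRNA. The list holds only fragments with a mean of at least 1.14 RPM.

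The tRF totals of many copies lay near what an equal division of the listed fragments gives. When the RPM of each listed fragment was divided equally among all tRNAs it matches, os_tR59, os_tR52 and os_tR55 came to 1921, 1920.1 and 1921 RPM, against deposited totals of 2157, 2153 and 2188 RPM. Counted in full for each tRNA, the listed fragments of os_tR59 would sum to 6554 RPM. Over the 48 copies with at least 1 RPM after equal division, the deposited total was at a median of 1.10 times the divided sum, and 26 copies lay within 1.5 times of it, against 3 within 1.5 times of the undivided sum. Departures were large for some: the deposited total was 106 times the divided sum for os_tR220, 6.29 times for os_tR159, 4.26 times for os_tR199 and 3.45 times for os_tR270, but 0.296 times for os_tR280 and 0.0243 times for os_tR237. Every closest organelle tRNA had a deposited total above its divided sum. The gap was wide for os_tR214 (590 against 114 RPM), os_tR197 (2717 against 877 RPM) and os_tR267 (174 against 49.1 RPM). It was narrower for os_tR277 (3842 against 3218 RPM). Deposited totals also hold fragments that are not listed. In control root replicate 1 the listed fragments summed to 56929 RPM and the tRF totals to 122864 RPM. An equal division of all reads was therefore not tested. Spearman's rho between deposited and divided values across these 48 copies was 0.832, a description over sequences that share fragments. How the authors assigned reads that match several tRNAs is not stated in the sources used here. The totals alone do not tell from which locus the shared fragments came.

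**Figure D4:**
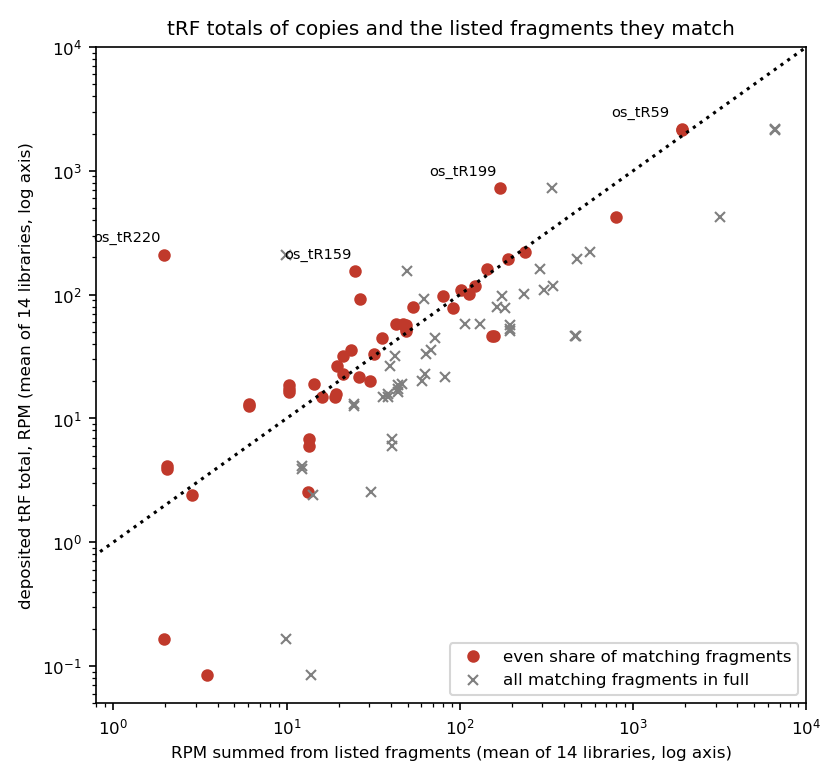
Deposited tRF total of each copy (y axis, RPM, log scale) against the RPM summed from listed fragments that match it (x axis, RPM, log scale), with each fragment divided equally among its matching tRNAs (red circles) or counted in full (grey crosses); the line marks equality. The red points follow the line for most copies, with os_tR220, os_tR159 and os_tR199 above it.

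At the limit of 15 edits, more copies were lower than higher in control root, set against control shoot. In tRNA signal 18 of the 38 tested copies were lower and 6 higher in control root (limma, Benjamini-Hochberg adjusted p under 0.05 over all tested tRNAs), against 15.2% lower and 59% higher among all 244 tested tRNAs. The median log2 difference was -1.38 over the copies and 2.12 over all. With the libraries rescaled to a common median 27 copies were lower and 0 higher, and with the table total 24 and 2. Shares over all tested tRNAs were not taken after rescaling, here or below. The percents printed are on the deposited scale and are no background for rescaled counts. Differences below are control root minus control shoot on log2(RPM + 1), ± SE, and understate changes of low values. Gly os_tR116 had 10.1 and 17.2 RPM in control root, against 132 and 119.5 RPM in control shoot (-3.15 ± 0.44, adjusted p = 7.7e-06). Asp os_tR54 was lower in control root by nearly the same factor as os_tR55 (-2.04 ± 0.12, adjusted p = 1.9e-10, beside -1.97 ± 0.08, adjusted p = 2.9e-12 for os_tR55). Pro os_tR217 was lower by less than its organelle tRNA (-1.03 ± 0.23, adjusted p = 0.00068, beside -2.81 ± 0.28, adjusted p = 1.3e-07 for os_tR214). Arg os_tR31 did not pass (-0.07 ± 0.49, adjusted p = 0.93). Rescaling made these falls larger: the differences of os_tR116, os_tR54 and os_tR217 were -5.25, -4.15 and -3.14 after median rescaling, which moved every named value by -2.10, and -5.02, -3.97 and -2.96 with the table total.

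The lowest copies in control root had almost no reads there. Val os_tR296 had 0 and 0 RPM in control root, against 63.96 and 92 RPM in control shoot, which is at least 13.1-fold lower against a floor of 3 reads over the group. Asp os_tR59 had 0 and 0 RPM in control root, against 46.7 and 48.2 RPM in control shoot, at least 7.74-fold lower by the same floor. With 1 read in control root, os_tR220 was 39.5-fold lower (95% exact counting interval 6.99 to 1570) and os_tR52 32.9-fold lower (5.80 to 1310). With 3 reads, Leu os_tR151 was 13.3-fold lower (4.48 to 65.4) and Val os_tR298 12.8-fold lower (4.29 to 62.6). Floors and intervals cover counting error only. In the fit all 6 were called lower, with log2 differences of -6.28, -5.60, -5.07, -5.02, -3.59 and -4.57, which depend on the pseudocount and are no bounds. The largest adjusted p among them was 0.00024 (limma, os_tR220).

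Calls in tRNA signal were not the same for all 6 His copies, and no test between copies was run. os_tR129 (-3.91 ± 0.30, adjusted p = 4.0e-09), os_tR135 (-3.83 ± 0.33, adjusted p = 2.1e-08) and os_tR133 (-3.01 ± 0.64, adjusted p = 0.00052), with differences in the 3' part, were lower in control root (limma). os_tR128 had 55.8 and 30.95 RPM in control root, against 13.5 and 9.46 RPM in control shoot, and was called higher (1.79 ± 0.68, adjusted p = 0.026), but its difference was -0.32 after median rescaling and -0.0537 after scaling to the table total. os_tR131 (1.36 ± 0.78, adjusted p = 0.13) and os_tR132 (1.15 ± 0.70, adjusted p = 0.15), also with differences in the 5' part, did not pass. In tRF totals os_tR128 (-3.22), os_tR131 (-3.04), os_tR132 (-3.03) and os_tR133 (-1.48) were lower in control root, os_tR129 did not pass and os_tR135 had too few reads to be tested. os_tR137 was lower too (-2.68). os_tR128, os_tR131 and os_tR132 averaged 17.2, 18.7 and 16.5 RPM and match all 8 listed fragments of os_tR137, which averaged 22.4 RPM. os_tR133, os_tR129 and os_tR135 averaged 2.43, 1.099 and 0.362 RPM.

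Higher tRNA signal in control root rested on the scaling for the copies with many reads. Asn os_tR41 (0.83 ± 0.32, adjusted p = 0.026, limma) was higher in control root as deposited but lower after median rescaling (-1.27) and after scaling to the table total (-1.10). Ser os_tR239 (0.75 ± 0.28, adjusted p = 0.022) was likewise lower after both (-1.35 and -1.17). Tyr os_tR280 and os_tR281 and Arg os_tR15 were the other 3 called higher, with mean signals of 2.298, 2.35 and 1.84 RPM. Calls lost when 1 library was left out were os_tR128 (1.37 to 1.55 without control root replicate 1 or control shoot replicate 2), os_tR239 (0.59 to 0.66 without control root replicate 2 or control shoot replicate 2) and os_tR41 (0.65 to 0.85 without control root replicate 2 or control shoot replicate 1 or control shoot replicate 2). A fit of the compared groups alone did not call os_tR128 and os_tR298 (adjusted p 0.063 to 0.073).

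In tRF totals the copies were lower in control root almost throughout. Of the 49 tested copies 43 were lower and 4 higher (limma), against 39.7% lower and 42.6% higher among all 272 tested tRNAs, and the median log2 difference was -3.58 over the copies and 0.04 over all. The counts were the same after median rescaling. Gly os_tR116 had 7.204 and 6.195 RPM in control root, against 491 and 446 RPM in control shoot (-5.93 ± 0.15, adjusted p = 3.5e-17), a larger difference than that of os_tR114 (-4.78). Asp os_tR52 (-4.88 ± 0.05, adjusted p = 5.2e-23), os_tR50 (-4.76 ± 0.08, adjusted p = 2.9e-20) and os_tR59 (-4.75 ± 0.05, adjusted p = 8.8e-24) lay close to os_tR55 (-4.73). Of the 24 listed fragments of os_tR55, os_tR59 matches 24, os_tR52 23 and os_tR50 18. These totals rest largely on shared fragments and are not separate results. The same limit holds for the counts of copies, since 352 of 353 listed fragments that match a copy also match an organelle tRNA. Pro os_tR220 (-4.64 ± 0.14, adjusted p = 4.9e-16), Phe os_tR199 (-4.48 ± 0.06, adjusted p = 2.7e-22), Gly os_tR119 (-4.01 ± 0.11, adjusted p = 1.3e-16) and Thr os_tR263 (-3.90 ± 0.14, adjusted p = 7.7e-15) were lower as well.

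Among copies with lower totals, Trp os_tR269 (-5.18), Val os_tR298 (-5.07), os_tR297 (-4.88) and os_tR296 (-4.83), Leu os_tR151 (-4.40) and Arg os_tR35 (-4.24) had the largest differences, with a largest limma adjusted p of 9.4e-10. The 3 Val copies ran from 2.56 to 3.63 RPM in control root and from 109 to 128 RPM in control shoot. The 4 higher totals included all 3 tested mitochondrion-like copies. Lys os_tR168 had 23.3 and 26.3 RPM in control root, against 5.44 and 6.29 RPM in control shoot (1.91 ± 0.30, adjusted p = 9.4e-06). Ser os_tR241 had 34.6 and 30.8 RPM in control root, against 11.8 and 14.6 RPM in control shoot (1.25 ± 0.23, adjusted p = 5.4e-05), and Ser os_tR239 had 55.6 and 47.6 RPM in control root, against 26.3 and 21.2 RPM in control shoot (1.09 ± 0.23, adjusted p = 0.00026). Asn os_tR45 was the only plastid-like copy called higher, with 136 and 128 RPM in control root, against 63.9 and 60.1 RPM in control shoot (1.08 ± 0.15, adjusted p = 1.8e-06). Its organelle tRNA os_tR37 did not pass (0.12 ± 0.10, adjusted p = 0.28).

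**Figure D5:**
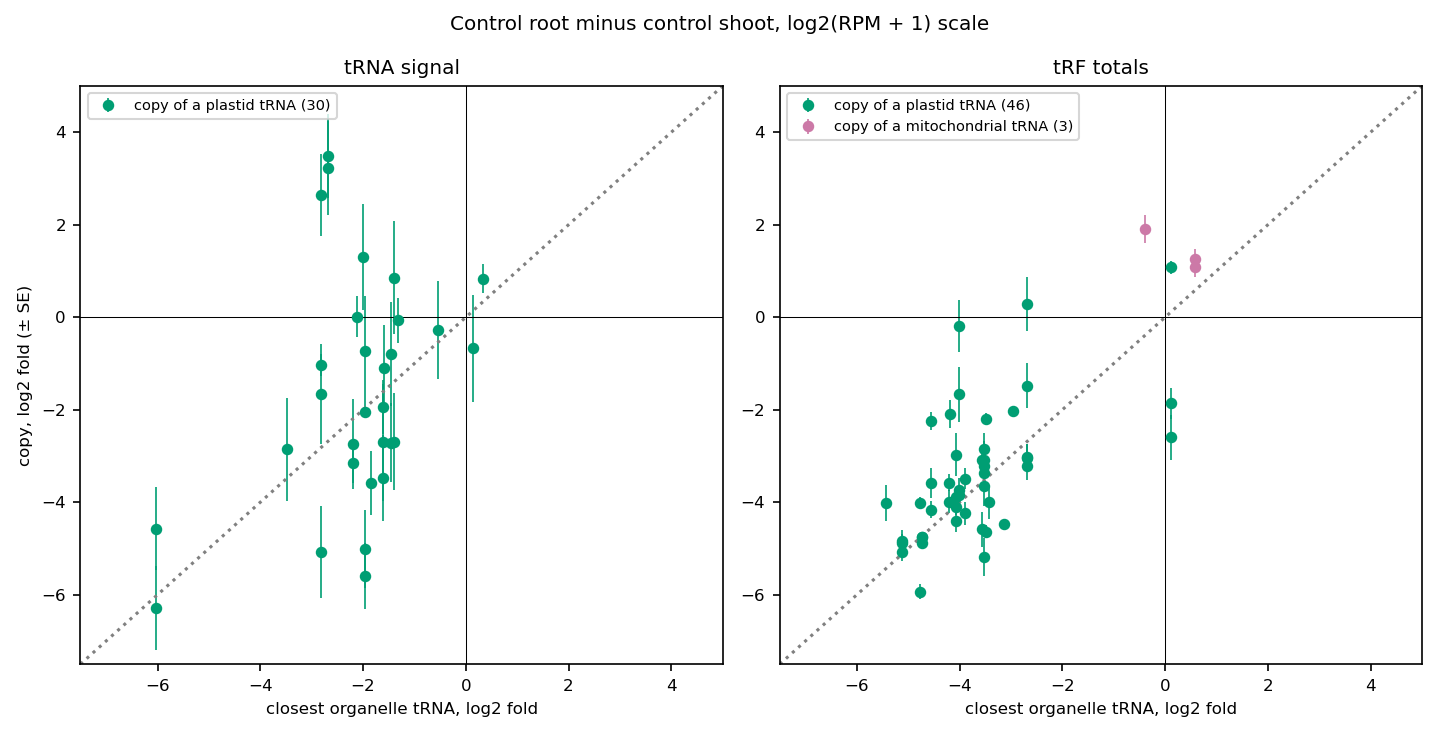
Control root minus control shoot, log2(RPM + 1), of each copy (y axis, ± SE) against its closest organelle tRNA (x axis) in tRNA signal (left, 30 pairs) and tRF totals (right, 49 pairs); colours give plastid-like and mitochondrion-like copies, and the dotted line marks equal differences. In tRF totals the plastid-like copies cluster at strongly negative values beside their organelle tRNAs, and the 3 mitochondrion-like copies lie above 0.

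The ratio of copy to closest organelle tRNA was then compared between the organs, fitted over all nuclear tRNAs with the same closest-organelle rule. In tRNA signal 8 of 30 copies had a higher ratio and 2 a lower ratio in control root than in control shoot, against 55.6% higher and 5.26% lower among the 171 nuclear tRNAs tested. The median log2 difference of the ratio was 0.38 over copies and 2.45 over all. os_tR217 was at 58.3 ± 17.6% of os_tR214 in control root and 16.7 ± 2.29% in control shoot (SD, n = 2 each; 1.78 ± 0.29, adjusted p = 0.00031, limma). Higher ratios were also called for Gln os_tR83 (2.14 ± 0.41, adjusted p = 0.0011), Val os_tR298 (1.47 ± 0.50, adjusted p = 0.027) and Arg os_tR31 (1.25 ± 0.41, adjusted p = 0.024). Lower ratios were called for Asp os_tR59 (-3.63 ± 0.58, adjusted p = 0.00029) and os_tR52 (-3.05 ± 0.79, adjusted p = 0.0069). Both had 0 or 1 read in control root, so these values depend on the pseudocount. No longer called with 1 library left out were os_tR298 (1.46 to 1.48 without control root replicate 1 or control root replicate 2 or control shoot replicate 1 or control shoot replicate 2), os_tR31 (0.82 to 1.08 without control root replicate 2 or control shoot replicate 2) and os_tR52 (-2.08 without control root replicate 1). In a fit restricted to the compared groups, os_tR298, os_tR31 and os_tR52 did not pass (adjusted p 0.06 to 0.095).

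In tRF totals 15 of 49 copies had a higher and 7 a lower ratio in control root, against 56.5% higher and 18.1% lower among 232 nuclear tRNAs. With a pseudocount of 5, or with no filter on low values, 25 were higher. Higher ratios were called for Cys os_tR62 (2.31 ± 0.20, adjusted p = 2.6e-08, limma), Lys os_tR168 (2.30 ± 0.32, adjusted p = 8.3e-06), Ser os_tR247 (2.10 ± 0.29, adjusted p = 8.5e-06), Thr os_tR258 (1.42 ± 0.37, adjusted p = 0.0026), Pro os_tR217 (1.28 ± 0.14, adjusted p = 7.0e-07), Arg os_tR15 (0.96 ± 0.28, adjusted p = 0.0057) and Gly os_tR119 (0.77 ± 0.15, adjusted p = 0.00026). Lower ratios were called for Asn os_tR41 (-1.98 ± 0.35, adjusted p = 8.9e-05), Phe os_tR199 (-1.35 ± 0.09, adjusted p = 1.1e-09), Pro os_tR220 (-1.16 ± 0.16, adjusted p = 8.9e-06) and Gly os_tR116 (-1.15 ± 0.17, adjusted p = 2.0e-05). The totals assigned to os_tR116 and os_tR119, copies of 1 organelle tRNA, thus moved in opposite directions relative to it. All their listed fragments (21 for os_tR116 and 29 for os_tR119) also match os_tR114. Whether the copies themselves differed was therefore not tested. In percent, os_tR116 was at 17.5 ± 0.199% of os_tR114 in control root and 43.5 ± 1.35% in control shoot. os_tR119 was at 51.4 ± 2.63% in control root and 30.8 ± 0.8602% in control shoot. Trp os_tR269 was called lower (-1.64 ± 0.48, adjusted p = 0.0060), and leaving out single libraries ended the call of os_tR269 (-1.21 to -0.73 without control root replicate 1 or control shoot replicate 1). Other settings ended the call for os_tR269 with a pseudocount of 5.

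Panicle was compared with the mean of control shoot and control root, with the same control libraries. In tRNA signal 9 of 38 copies were higher in panicle and 0 lower (limma; 60.7% higher and 0.41% lower among all tested tRNAs). The median log2 difference was 0.64 over copies and 1.41 over all; after median rescaling 4 copies were higher and 4 lower, and with the table total 6 and 2. At an unadjusted p under 0.05 1 copy was lower. Asp os_tR54 (2.90 ± 0.10, adjusted p = 2.1e-12) and Pro os_tR217 (2.61 ± 0.20, adjusted p = 9.6e-09) had panicle values above every other library, as listed above, and their differences were 1.60 and 1.31 after median rescaling. His os_tR129 (2.07 ± 0.26, adjusted p = 2.9e-06) and os_tR135 (2.03 ± 0.29, adjusted p = 1.2e-05) and Ser os_tR239 (1.45 ± 0.24, adjusted p = 6.7e-05) were higher as well, with os_tR129 at 0.77 after median rescaling, and os_tR135 (0.73) and os_tR239 (0.15) losing the call after median rescaling. The other 4 were Asp os_tR59 (3.05 ± 0.62, adjusted p = 0.00048), Val os_tR296 (2.78 ± 0.79, adjusted p = 0.0063), Thr os_tR258 (2.51 ± 0.51, adjusted p = 0.00047) and Asp os_tR52 (2.25 ± 0.73, adjusted p = 0.015), of which os_tR296, os_tR258 and os_tR52 lost the call after median rescaling (1.47, 1.21 and 0.94), and os_tR59 was at 1.75. Omitting a single library ended the calls of os_tR296 (2.78 without panicle replicate 1 or panicle replicate 2) and os_tR52 (1.89 to 2.60 without panicle replicate 1 or panicle replicate 2).

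In tRF totals 30 of 49 copies were higher and 4 lower in panicle (60.7% higher and 15.8% lower among all tested). After median rescaling 19 were higher and 10 lower. Asp os_tR52 (2.23 ± 0.05, adjusted p = 3.0e-18, limma), os_tR59 (2.17 ± 0.04, adjusted p = 8.5e-19) and os_tR50 (1.19 ± 0.07, adjusted p = 1.6e-11), Pro os_tR220 (1.61 ± 0.12, adjusted p = 1.0e-09), and Gly os_tR116 (1.54 ± 0.13, adjusted p = 5.0e-09) and os_tR119 (1.54 ± 0.10, adjusted p = 6.4e-11) were higher; Thr os_tR263 was higher as deposited (0.72 ± 0.12, adjusted p = 4.4e-05) but not after median rescaling (0.24). Leu os_tR151 (2.25), Phe os_tR202 (2.17), Arg os_tR35 (2.12), Val os_tR296 (1.86) and os_tR297 (1.85) and Tyr os_tR280 (1.82) were the further copies with the largest differences, with a largest adjusted p of 8.9e-08. Lower were Phe os_tR199 (-0.56 ± 0.05, adjusted p = 5.0e-09), Asn os_tR41 (-1.20 ± 0.29, adjusted p = 0.0010), Leu os_tR159 (-0.75 ± 0.09, adjusted p = 3.9e-07) and Trp os_tR270 (-0.58 ± 0.15, adjusted p = 0.0018). These comparisons are with a mean of unlike organs on the log scale. For os_tR59, panicle lay at 3050.03 and 2970.3 RPM, between control root at 124 and 132 RPM and control shoot at 3533 and 3433 RPM.

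The ratio to the organelle tRNA did not pass the test in panicle for 27 of 30 copies in tRNA signal and 29 of 49 in tRF totals. In tRNA signal 1 of 30 copies had a higher and 2 a lower ratio in panicle (27.5% and 3.51% among the nuclear tRNAs tested), and in tRF totals 6 of 49 were higher and 14 lower (18.5% and 42.2%). In tRNA signal os_tR217 was higher relative to os_tR214 (0.97 ± 0.25, adjusted p = 0.012, limma), and os_tR151 (-3.83 ± 0.60, adjusted p = 0.00074) and os_tR220 (-3.56 ± 0.92, adjusted p = 0.012) were lower. Without 1 of the libraries the tRNA signal calls were lost for os_tR217 (0.91 to 1.02 without panicle replicate 1 or panicle replicate 2) and os_tR220 (-2.78 without panicle replicate 2). With the compared groups alone in the fit, the call of os_tR220 was lost (adjusted p = 0.057). In tRF totals the lower ratios included Asp os_tR50 (-0.93 ± 0.10, adjusted p = 7.2e-07), Phe os_tR199 (-0.60 ± 0.08, adjusted p = 6.9e-06), Leu os_tR159 (-1.44 ± 0.13, adjusted p = 1.4e-07), Cys os_tR62 (-1.33 ± 0.17, adjusted p = 7.1e-06), Thr os_tR258 (-1.32 ± 0.32, adjusted p = 0.0023), Asn os_tR41 (-1.18 ± 0.30, adjusted p = 0.0033), Arg os_tR31 (-1.05 ± 0.22, adjusted p = 0.00086) and Gln os_tR83 (-0.91). The 6 higher ratios were those of os_tR220 (0.71), os_tR269 (1.23), os_tR280 (0.75), os_tR168 (0.67), os_tR281 (0.61) and os_tR80 (0.40). The count of higher ratios ranged from 1 to 8 when single libraries were left out. For tRF totals leaving out single libraries ended the calls of os_tR168 (0.58 to 0.74 without any 1 of 9 libraries), os_tR258 (-0.86 without panicle replicate 2), os_tR269 (1.01 to 1.37 without control shoot replicate 2 or panicle replicate 1 or panicle replicate 2), os_tR280 (0.65 without panicle replicate 1), os_tR281 (0.46 to 0.65 without control root replicate 2 or control shoot replicate 1 or panicle replicate 1 or panicle replicate 2) and os_tR80 (0.29 to 0.44 without any 1 of 11 libraries). A fit of the compared groups alone did not call os_tR80 (adjusted p = 0.061). Calls were also lost for os_tR168 and os_tR80 with no filter on low values or a replicate block, for os_tR168 with a filter at 10 RPM, for os_tR168, os_tR269, os_tR281 and os_tR80 with a pseudocount of 5.

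Few copies were called in the tRNA signal of shoot under cold. Of 38 copies 3 were higher and 2 lower in cold shoot than in control shoot (limma; 36.5% and 2.46% of all tested), and 1 and 5 after median rescaling. Pro os_tR217 was higher (1.52 ± 0.23, adjusted p = 5.2e-05), and by 0.69 after median rescaling and 0.88 with the table total. Asp os_tR54 was higher as deposited (0.70 ± 0.12, adjusted p = 0.00023) but at -0.14 after median rescaling. Gln os_tR83 had 121 and 148 RPM in cold shoot, against 50.4 and 51.6 RPM in control shoot (1.37 ± 0.44, adjusted p = 0.024), a call lost after median rescaling (0.54). Asn os_tR41 was lower (-0.92 ± 0.32, adjusted p = 0.031), and more so after median rescaling (-1.76). Pro os_tR220 had 1.64 and 2.29 RPM in cold shoot, against 87.3 and 76.5 RPM in control shoot, which is 40-fold lower on 3 reads (95% exact counting interval 13.4 to 196; -4.81 ± 0.99, adjusted p = 0.0011). Leaving out single libraries ended the calls of os_tR41 (-0.99 to -0.86 without any 1 of 6 libraries) and os_tR83 (1.23 to 1.52 without control shoot replicate 1 or control shoot replicate 2 or cold shoot replicate 1 or cold shoot replicate 2).

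In tRF totals 14 of 49 copies were lower and 1 higher in cold shoot (19.1% lower and 31.2% higher among all tested). Phe os_tR199 had the largest fall, with 816 and 778 RPM in cold shoot, against 2582 and 2635 RPM in control shoot (-1.71 ± 0.06, adjusted p = 1.3e-14, limma), beside -0.82 for os_tR197. Gly os_tR119 (-0.52 ± 0.11, adjusted p = 0.00091) and Thr os_tR263 (-0.42 ± 0.14, adjusted p = 0.021) fell as well. Further falls were those of Asn os_tR41 (-1.55 ± 0.33, adjusted p = 0.00073), Met os_tR189 (-1.02 ± 0.31, adjusted p = 0.011), Val os_tR298 (-0.84 ± 0.20, adjusted p = 0.0019) and os_tR296 (-0.79 ± 0.23, adjusted p = 0.0076), Ser os_tR247 (-0.75 ± 0.30, adjusted p = 0.044) and Tyr os_tR281 (-0.64 ± 0.24, adjusted p = 0.036). Asp os_tR59 was higher by a small amount (0.13 ± 0.05, adjusted p = 0.026) and at -0.0473 after median rescaling and -0.0580 after scaling to the table total. The count of falls ranged from 6 to 15 when single libraries were left out, and the calls of os_tR189 (-1.0 to -0.84 without control shoot replicate 1 or cold shoot replicate 1), os_tR247 (-0.80 to -0.56 without any 1 of 7 libraries), os_tR263 (-0.42 to -0.34 without control shoot replicate 1 or control shoot replicate 2 or cold shoot replicate 1), os_tR281 (-0.72 to -0.43 without control shoot replicate 2 or cold shoot replicate 1 or cold shoot replicate 2), os_tR296 (-0.72 to -0.71 without control shoot replicate 1 or cold shoot replicate 1) and os_tR59 (0.11 to 0.15 without control shoot replicate 2 or cold shoot replicate 1 or cold shoot replicate 2) were lost. Other settings ended the call for os_tR247 with a pseudocount of 0.5.

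Under salt, copies in shoot that changed in tRNA signal were lower. In all, 8 of 38 copies were lower and 0 higher in salt shoot than in control shoot (limma; 13.1% lower and 13.5% higher among all tested; 8 and 0 after median rescaling; 0 copies were higher at an unadjusted p under 0.05). Asn os_tR41 had 10.6 and 22.5 RPM in salt shoot, against 231 and 227 RPM in control shoot (-3.80 ± 0.32, adjusted p = 1.6e-07), and its organelle tRNA os_tR37 had 94.99 and 116 RPM in salt shoot, against 510.5 and 580.4 RPM in control shoot (-2.37 ± 0.18, adjusted p = 1.3e-07). Pro os_tR220 had no reads in salt shoot, at least 30.8-fold lower by the floor of 3 reads over the group. His os_tR131 (-2.95 ± 0.78, adjusted p = 0.011), os_tR135 (-0.96 ± 0.33, adjusted p = 0.039) and os_tR129 (-0.91 ± 0.30, adjusted p = 0.032) and Pro os_tR217 (-0.65 ± 0.23, adjusted p = 0.047) were lower. The count ranged from 2 to 10 when single libraries were left out. The calls of os_tR129 (-1.09 to -0.72 without any 1 of 5 libraries), os_tR131 (-2.77 to -1.41 without control shoot replicate 1 or salt shoot replicate 1), os_tR135 (-1.03 to -0.67 without any 1 of 9 libraries) and os_tR217 (-0.74 to -0.55 without any 1 of 12 libraries) were then lost. In a fit restricted to the compared groups, os_tR129, os_tR131, os_tR135 and os_tR217 did not pass (adjusted p 0.069 to 0.31). Calls were also lost for os_tR217 with no filter on low values or a pseudocount of 0.5 or a replicate block.

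In tRF totals 15 of 49 copies were lower and 6 higher in salt shoot (21.7% and 40.1% of all tested), and 30 and 2 after median rescaling. Phe os_tR199 had 937 and 887 RPM in salt shoot, against 2582 and 2635 RPM in control shoot (-1.52 ± 0.06, adjusted p = 2.4e-14, limma). Asn os_tR41 fell (-3.03 ± 0.33, adjusted p = 1.8e-07) while Asn os_tR45 rose, with 147 and 124 RPM in salt shoot, against 63.9 and 60.1 RPM in control shoot (1.12 ± 0.15, adjusted p = 2.2e-06). Both are copies of os_tR37, with differences at other positions. All their listed fragments (11 for os_tR41 and 14 for os_tR45) also match os_tR37. Thr os_tR263 (-0.72 ± 0.14, adjusted p = 0.00023) and Pro os_tR220 (-0.51 ± 0.14, adjusted p = 0.0047) fell. Further falls were those of Cys os_tR68 (-1.44), Trp os_tR269 (-1.16), Met os_tR181 (-1.14), Arg os_tR31 (-1.04) and Phe os_tR202 (-0.78), with a largest adjusted p of 0.021. The Asp copies had small rises, os_tR50 and os_tR119 of Gly alike (0.48 each, and 0.02 each after median rescaling), os_tR59 (0.23 ± 0.05, adjusted p = 0.00023, but -0.22 after median rescaling and -0.11 after scaling to the table total) and os_tR52 (0.18 ± 0.05, adjusted p = 0.0073, but -0.27 and -0.16). Calls lost when 1 library was left out were os_tR269 (-0.89 to -0.79 without control shoot replicate 1 or salt shoot replicate 1) and os_tR52 (0.15 without salt shoot replicate 1). Other settings ended the call for os_tR269 with a pseudocount of 0.5.

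Under cold, copies in root that changed were mostly higher, and os_tR116, os_tR129, os_tR135, os_tR54 and os_tR217 stayed below their control shoot libraries. In tRNA signal 8 of 38 copies were higher and 3 lower in cold root than in control root (limma; 11.1% and 24.2% of all tested), and 10 and 1 after median rescaling. Gly os_tR116 had 69.3 and 57.8 RPM in cold root, against 10.1 and 17.2 RPM in control root (2.17 ± 0.44, adjusted p = 0.0011). His os_tR129 (1.94 ± 0.30, adjusted p = 8.7e-05) and os_tR135 (1.66 ± 0.33, adjusted p = 0.00093), Asp os_tR54 (1.53 ± 0.12, adjusted p = 1.0e-07) and Pro os_tR217 (0.86 ± 0.23, adjusted p = 0.0081, and 1.45 with the table total) were higher. Val os_tR296 was at least 2.98-fold and Asp os_tR59 at least 2.03-fold higher against the floor of 3 reads over control root, and Asp os_tR52 was 8.13-fold higher (95% exact counting interval 1.30 to 337). Asn os_tR41 fell (-1.37 ± 0.32, adjusted p = 0.0027), but not after scaling to the table total (-0.78), and the 2 others lower, os_tR281 and os_tR15, had mean signals of 2.35 and 1.84 RPM. No longer called with 1 library left out were os_tR217 (0.79 to 0.84 without control root replicate 2 or cold root replicate 1), os_tR41 (-1.15 without cold root replicate 1) and os_tR52 (2.01 to 2.97 without control root replicate 1 or cold root replicate 1). With the compared groups alone in the fit, the calls of os_tR135 and os_tR52 were lost (adjusted p 0.095 to 0.097).

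In tRF totals 27 of 49 copies were higher and 1 lower in cold root (26.1% and 29.4% of all tested; the counts were the same after median rescaling). All 27 are plastid-like, as are 46 of the 49 tested copies. Gly os_tR116 had 42.2 and 34.5 RPM in cold root, against 7.204 and 6.195 RPM in control root (2.35 ± 0.15, adjusted p = 2.3e-10, limma). Asp os_tR50 (2.12 ± 0.08, adjusted p = 8.1e-14), os_tR52 (1.86 ± 0.05, adjusted p = 1.6e-15) and os_tR59 (1.73 ± 0.05, adjusted p = 7.4e-16), Thr os_tR263 (1.43 ± 0.14, adjusted p = 9.1e-08), Gly os_tR119 (1.18 ± 0.11, adjusted p = 5.9e-08), Pro os_tR220 (0.67 ± 0.14, adjusted p = 0.00059) and Phe os_tR199 (0.23 ± 0.06, adjusted p = 0.0018) were higher. Further rises were those of Trp os_tR269 (1.83), Val os_tR298 (1.72) and os_tR297 (1.45), Thr os_tR258 (1.47), Arg os_tR35 (1.37) and Gln os_tR83 (1.35), with a largest adjusted p of 0.0038. Asn os_tR41 fell, with 4.77 and 3.47 RPM in cold root, against 10.3 and 14.95 RPM in control root (-1.40 ± 0.33, adjusted p = 0.0014). The plastid share of all tRF totals moved with these rises, at 3.57 ± 0.0272% in cold root and 2.12 ± 0.0441% in control root, and its part in them was not tested. Omitting a single library ended the call of os_tR258 (0.71 without control root replicate 1). A fit of the compared groups alone did not call os_tR220 and os_tR258 (adjusted p 0.093 to 0.099).

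Salt calls among the copies in root went in both directions, at smaller shares than over all tested tRNAs. In tRNA signal 4 of 38 copies were higher and 3 lower in salt root than in control root (limma; 14.8% and 12.3% of all tested): Gly os_tR116 (2.15 ± 0.44, adjusted p = 0.0015), His os_tR129 (1.61 ± 0.30, adjusted p = 0.00076) and os_tR135 (1.49 ± 0.33, adjusted p = 0.0026) and Asp os_tR54 (0.84 ± 0.12, adjusted p = 8.7e-05) rose, and Asn os_tR41 fell (-1.53 ± 0.32, adjusted p = 0.0016). os_tR280 and os_tR15, at 2.298 and 1.84 RPM, were the others lower. With the compared groups alone in the fit 1 copy was higher and 1 lower. In a fit restricted to the compared groups, os_tR116, os_tR129, os_tR135 and os_tR41 did not pass (adjusted p 0.055 to 0.27). In tRF totals 8 of 49 copies were higher and 8 lower (21% and 35.7% of all tested), and 10 and 8 after median rescaling. The rises were small: Asp os_tR50 (0.81 ± 0.08, adjusted p = 8.1e-08), os_tR52 (0.33) and os_tR59 (0.24), Gly os_tR116 (0.70 ± 0.15, adjusted p = 0.00069) and os_tR119 (0.44), Phe os_tR199 (0.14), and Val os_tR297 (0.53) and os_tR298 (0.50).

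Among the falls in salt root were all 3 tested mitochondrion-like copies. Lys os_tR168 had 7.55 and 7.21 RPM in salt root, against 23.3 and 26.3 RPM in control root (-1.62 ± 0.30, adjusted p = 0.00013, limma). Ser os_tR239 had 18.9 and 19.96 RPM in salt root, against 55.6 and 47.6 RPM in control root (-1.36 ± 0.23, adjusted p = 5.6e-05) and Ser os_tR241 had 20.2 and 17.1 RPM in salt root, against 34.6 and 30.8 RPM in control root (-0.78 ± 0.23, adjusted p = 0.0067). Mitochondrial tRNAs as a whole made up 1.04 ± 0.0218% of tRF totals in salt root and 2.52 ± 0.108% in control root. Of the plastid-like copies, Met os_tR181 (-1.74 ± 0.23, adjusted p = 2.7e-06), Asn os_tR45 (-1.11 ± 0.15, adjusted p = 3.3e-06), Leu os_tR159 (-0.81 ± 0.10, adjusted p = 1.7e-06), Pro os_tR220 (-0.61 ± 0.14, adjusted p = 0.0014) and Pro os_tR217 (-0.64) fell. Leaving out single libraries ended the calls of os_tR199 (0.10 to 0.16 without any 1 of 7 libraries), os_tR241 (-0.66 without salt root replicate 2), os_tR297 (0.38 to 0.49 without control root replicate 1 or salt root replicate 2) and os_tR298 (0.46 to 0.54 without any 1 of 8 libraries). With the compared groups alone in the fit, the calls of os_tR116, os_tR119, os_tR199, os_tR220, os_tR297, os_tR298 and os_tR59 were lost (adjusted p 0.052 to 0.14). Calls were also lost for os_tR199, os_tR297 and os_tR298 with a pseudocount of 5.

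Whether a stress acted differently in the organs was tested as the effect in root minus the effect in shoot. For cold, 7 of 38 copies had a higher and 2 a lower difference in tRNA signal (limma; 6.97% and 36.5% of all tested; 11 and 0 after median rescaling), and 29 of 49 a higher and 0 a lower one in tRF totals (24.3% and 36%). 0 copies were lower in tRF totals at an unadjusted p under 0.05. For salt, 7 were higher and 0 lower in tRNA signal (12.3% and 11.9%), with 1 lower at an unadjusted p under 0.05, and 13 higher and 7 lower in tRF totals (16.5% and 46.7%; 23 and 3 after median rescaling). Examples in tRF totals were Phe os_tR199, which rose in cold root (0.23) and fell in cold shoot (-1.71; difference 1.94 ± 0.08, adjusted p = 2.5e-13), and Asn os_tR45, which fell in salt root (-1.11) and rose in salt shoot (1.12; difference -2.23 ± 0.21, adjusted p = 2.4e-08). In tRNA signal His os_tR129 rose in salt root (1.61) and fell in salt shoot (-0.91; difference 2.52 ± 0.42, adjusted p = 0.00037).

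Single fragments that match copies were mostly lower in control root. Of the 353, 285 were lower and 11 higher in control root than in control shoot (limma), against 27.5% lower and 21.9% higher among all 2794 listed fragments, and the median log2 difference was -2.67 over these and -0.22 over all. All but 1 also match an organelle tRNA, so the counts describe shared sequences. By class, 21 of 24 5'-halves were lower and the other 3 did not pass, 99 of 124 tRF-5 were lower and 5 higher, 126 of 152 tRF-3 were lower and 4 higher, and 39 of 53 3'-halves were lower and 2 higher. Shares over all listed fragments of each class were not taken, so these counts do not compare the classes. Of the 10 most abundant, 9 are 5' ends shared by os_tR59, os_tR52 and os_tR55. The 5'-halves of 37, 35 and 36 nt match these 3 tRNAs and averaged 1327, 1047 and 940.2 RPM. The 37 nt form had 73.8 and 77.1 RPM in control root, against 2475 and 2399.6 RPM in control shoot (log2 difference -5.00 ± 0.05, adjusted p = 4.3e-22). It ends before base 47, the first at which os_tR59 differs.

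The 6 tRF-5 of 33, 17, 21, 34, 26 and 19 nt match os_tR50 as well, since they end before its changed base, and averaged 751, 686, 575, 309.7, 233 and 209 RPM. The 33 nt form had 20.6 and 18.2 RPM in control root, against 1666 and 1603 RPM in control shoot (log2 difference -6.33 ± 0.09, limma adjusted p = 1.5e-20). The tenth, a tRF-5 of 36 nt with a mean of 205 RPM, matches Tyr os_tR280 and os_tR281 and their organelle tRNA os_tR277. The fragment that matches os_tR50 alone was lower in control root (log2 difference -1.89 ± 0.68, limma adjusted p = 0.028).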

How the data were processed

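Small RNA libraries of 7 rice groups were used, with n = 2 libraries in each and 14 in all; Arabidopsis libraries of the study were not analysed here. The authors deposited log2 values of RPM per library, per the file headers, for tRNA signal, for tRF totals per tRNA and for single fragments, and the submitters' processing notes name cutadapt. The headers give 1 added before the log, but per-tRNA values come out as whole reads in 100% of cases (tolerance 0.05) with 0.5 added, so 0.5 was used there. Aligner, read assignment, scaling total and rice genome build are not stated in the labels or headers used here.

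RPM was recovered from the log2 values, and log2(RPM + 1) was fitted for every feature whose mean reached 1 RPM with limma 3.58.1 (R 4.3.3), with 7 group means over all 14 libraries and a trend in the variance. Calls are at a two-sided Benjamini-Hochberg adjusted p under 0.05 over all tested features of a table, within each comparison. The comparisons share control libraries. Since the unit was log2, no count test was run. The fits were tested on simulated data with changes placed in control root. At a log2 change of 1.5, 63.2% were recovered in tRNA signal and 95.2% in tRF totals. For the ratios it was 43.5% in tRNA signal and 74.1% in tRF totals, and for single fragments 35.3%. A feature that did not pass is thus not shown to be unchanged. Ratios to the closest organelle tRNA were fitted in the same way over all nuclear tRNAs. Edit distances and fragment matches came from the deposited sequences (Python 3.11.15, pandas 2.3.3, numpy 2.4.6), and locus starts were turned to 1-based.

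The members and lists were chosen with earlier results of these data known. Values in every library are given for the 8 copies with the highest mean in each table, and calls for these and for up to 6 further copies per direction with a mean of at least 10 RPM, by size of the difference. The other His copies, copies at lower means and examples of changed anticodons were named after their values were seen. Alternatives were other pseudocounts, filters, offsets, scalings, edit limits, groups in the fit, a replicate block and leaving out each library.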

Additional observations from a re-analysis of the deposited data

Results flagged for a closer look

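The effect of a stress differed between the organs for 45 results of named copies, by the test of the difference itself (effect in root minus effect in shoot, log2(RPM + 1), limma adjusted p under 0.05). Values are given with no explanation.

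For cold in tRNA signal, the difference was 1.96 for His os_tR129 and 1.84 for os_tR135, 0.83 for Asp os_tR54, 3.22 for os_tR52 and 3.17 for os_tR59, 5.02 for Val os_tR296, 4.31 for Pro os_tR220 and -1.91 for Gln os_tR83. The last lost its call after median rescaling (-0.63). Median rescaling moved all 8 upward, for example to 3.24 for os_tR129 and 2.12 for os_tR54. os_tR296, os_tR59, os_tR52 and os_tR220 had at most 1 read in control root, so their values depend on the pseudocount and are no bounds. Leaving out single libraries ended the calls of os_tR220 (3.01 to 4.22 without control root replicate 2 or cold root replicate 1 or control shoot replicate 1 or cold shoot replicate 1), os_tR52 (2.15 to 3.39 without any 1 of 9 libraries), os_tR59 (3.09 to 3.26 without cold shoot replicate 1 or cold shoot replicate 2) and os_tR83 (-1.80 to -1.57 without control root replicate 2 or cold root replicate 1 or cold shoot replicate 2). Other settings ended the call for os_tR59 with a pseudocount of 5, for os_tR220 and os_tR52 with a pseudocount of 0.5.

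For salt in tRNA signal, the difference was 2.84 for Gly os_tR116, 2.52 for His os_tR129, 2.45 for os_tR135 and 2.60 for os_tR133, 2.28 for Asn os_tR41, and 0.75 for Asp os_tR54. The fitted value of Pro os_tR220 was 8.16, or 9.29 with the table total, but it had no reads in salt shoot and 1 in control root, so this value is set by the pseudocount and is no bound. os_tR41 fell in both organs (-1.53 in root and -3.80 in shoot). Leaving out single libraries ended the call of os_tR133 (1.33 to 2.85 without any 1 of 12 libraries). A fit of the compared groups alone did not call os_tR116, os_tR133 and os_tR135 (adjusted p 0.053 to 0.25). Calls were also lost for os_tR133 with no filter on low values or a pseudocount of 0.5.

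For cold in tRF totals, the difference was 2.07 for Asp os_tR50, 1.73 for os_tR52 and 1.59 for os_tR59, 2.39 for Gly os_tR116 and 1.70 for os_tR119, 1.94 for Phe os_tR199, 1.85 for Thr os_tR263 and 1.99 for os_tR258, and 0.99 for Pro os_tR220. It was 2.05 for Val os_tR296, 2.04 for os_tR297 and 2.56 for os_tR298, 2.45 for Trp os_tR269 and 1.85 for Gln os_tR83. All 14 are plastid-like, as are 46 of the 49 copies tested in tRF totals.

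For salt in tRF totals, the difference was 1.65 for Phe os_tR199, 0.96 for Gly os_tR116, 0.59 for Thr os_tR263, 0.33 for Asp os_tR50, 2.41 for Asn os_tR41, 1.83 for Cys os_tR68, 1.41 for Trp os_tR269, 1.14 for Val os_tR298 and 0.89 for os_tR297, and 1.0 for Leu os_tR151. It was negative for Asn os_tR45 (-2.23), for the mitochondrion-like Lys os_tR168 (-2.21) and Ser os_tR239 (-1.21), for Pro os_tR217 (-0.71) and Cys os_tR62 (-0.70), and for Leu os_tR159 (-0.53, but 0.10 after median rescaling). The calls of os_tR217, os_tR62 and os_tR239 were lost after median rescaling (-0.08, -0.08 and -0.58). Leaving out single libraries ended the calls of os_tR151 (0.61 to 0.70 without control root replicate 1 or salt root replicate 2), os_tR263 (0.33 to 0.45 without control root replicate 2 or salt root replicate 2), os_tR269 (0.69 to 1.41 without any 1 of 10 libraries), os_tR50 (0.22 to 0.32 without salt root replicate 1 or control shoot replicate 1 or salt shoot replicate 1) and os_tR62 (-0.72 to -0.39 without any 1 of 5 libraries). In a fit restricted to the compared groups, os_tR263, os_tR269 and os_tR62 did not pass (adjusted p 0.051 to 0.1). Other settings ended the call for os_tR269 with no filter on low values or a pseudocount of 0.5 or the other offset or listed zeros taken as 0.5 RPM, for os_tR50 with a pseudocount of 5.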

How the results depend on the processing

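Of the counts of called copies or fragments recomputed under all alternatives, 932 stayed within 1.5 times of the reported count and 130 did not; of the values of named copies, 5968 kept direction and call, 274 lost and 60 gained a call, and 14 changed direction. Causes were not tested unless the setting itself shows them. The 14 are all rescalings: root minus shoot tRNA signal of os_tR41 (-1.27 median, -1.10 table total), os_tR239 (-1.35, -1.17) and os_tR128 (-0.32, -0.0537), cold shoot tRNA signal of os_tR54 (-0.14 median), cold shoot tRF total of os_tR59 (-0.0473, -0.0580), salt shoot tRF totals of os_tR59 (-0.22, -0.11) and os_tR52 (-0.27, -0.16), and the salt difference between organs in the tRF total of os_tR159 (0.10 median).

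With at most 20 edits, which adds 19 nuclear tRNAs, counts in tRNA signal became 22 higher in root, 22 higher in panicle, 9 higher in cold shoot, 5 higher in salt shoot, 7 lower in cold root, 8 higher and 5 lower in salt root, 9 lower for the cold and 4 lower for the salt difference, 14 higher and 4 lower for the root to shoot ratio and 10 higher for the panicle ratio. In tRF totals they became 16 higher in root, 10 lower in panicle, 7 higher in cold shoot, 21 higher in salt shoot, 12 lower in cold root, 18 lower in salt root, 11 lower for the cold and 23 lower for the salt difference, 29 higher for the root to shoot ratio, and 11 higher and 24 lower for the panicle ratio. Shares of plastid-like copies then were 10.5% in panicle, 8.59% in control root and 10.6% in control shoot of tRNA signal, and 12.9%, 5.2% and 15.9% of tRF totals; those of mitochondrion-like copies were 4.86%, 7.74% and 2.23% of tRNA signal and 3.0%, 4.13% and 2.15% of tRF totals.

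With a filter at 10 RPM, which tests fewer features, tRNA signal gave 3 higher in root, 1 lower in cold root, 1 lower in salt root, 1 lower for the cold difference and 4 higher and 4 lower for the root to shoot ratio, tRF totals gave 2 higher in cold shoot, and fragments 5 higher and 103 lower. With no filter, 1 copy was lower for the salt difference in tRNA signal and 25 higher for the root to shoot ratio in tRF totals. Counts under these alternatives are of copies alone, without the share over all tested tRNAs. After median rescaling, tRNA signal gave 0 higher in root, 4 higher and 4 lower in panicle, 1 higher and 5 lower in cold shoot, 1 lower in cold root, and 11 higher and 0 lower for the cold difference. tRF totals gave 19 higher and 10 lower in panicle, 0 higher in cold shoot, 2 higher and 30 lower in salt shoot, and 23 higher and 3 lower for the salt difference. Scaled to the table total, tRNA signal gave 2 higher in root, 2 lower in panicle, 1 higher in cold shoot, 0 lower in cold root, and 11 higher and 0 lower for the cold difference, and tRF totals 0 higher in cold shoot, 2 higher in salt shoot and 4 lower for the salt difference.

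With only the groups compared in the fit, tRNA signal gave 5 higher and 4 lower in cold shoot, 5 lower in salt shoot, 1 higher and 1 lower in salt root, and 4 higher and 1 lower for the salt difference, tRF totals 4 higher and 22 lower in cold shoot and 2 higher in salt root, and 32 of 217 named calls were lost. With the other offset, 1 copy was lower in panicle in tRNA signal. A pseudocount of 5 gave 1 lower in panicle and 9 lower for the panicle ratio in tRNA signal, and in tRF totals 3 higher in cold shoot, 2 lower in cold root, 5 higher in salt root, 25 higher for the root to shoot ratio and 2 higher for the panicle ratio.

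Leaving out single libraries gave these lowest and highest counts. In tRNA signal they were 3 to 8 higher in root, 0 to 1 lower in panicle, 1 to 2 lower in cold shoot, 2 to 10 lower in salt shoot, 1 to 3 lower in cold root, 4 to 7 higher and 2 to 5 lower in salt root, 4 to 9 higher and 0 to 3 lower for the cold difference, 0 to 1 lower for the salt difference, 5 to 8 higher and 2 to 4 lower for the root to shoot ratio, and 0 to 1 higher and 1 to 3 lower for the panicle ratio. In tRF totals they were 0 to 2 higher and 6 to 15 lower in cold shoot, 5 to 10 higher in salt root, 0 to 1 lower for the cold difference and 1 to 8 higher for the panicle ratio. At least 1 such setting ended 49 of 217 named calls. Same-numbered libraries of different groups had a correlation of deviations over 0.1 in 4 of 21 group pairs of tRNA signal and 3 of 21 of tRF totals. In fragments it was over 0.1 in 11 of 21 and positive in all 21 (0.0524 to 0.163). Replicate 2 had 1.49 to 1.64 times the reads of replicate 1 in every group. Not every pair passed 0.1, and the numbers were not taken as pairs. Whether the replicate numbers mark something the groups share was not settled by this. With a replicate block, 4 copies instead of 6 were higher for the panicle ratio in tRF totals, 2 instead of 3 lower in cold root and 7 instead of 8 lower in salt shoot in tRNA signal, and 3 named calls were lost. Depth limits copies at a few RPM in tRNA signal, where 1 read was worth up to 5.23 RPM.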
